A study of Mus musculus with 30 samples.

Results

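The nuclear-encoded respiratory chain genes are the genes of the cell nucleus for the subunits of the 5 protein complexes that carry out oxidative phosphorylation in mitochondria. They were chosen by symbol in the MOC1 single-cell gene table, with no measured value used: of 97 entries that start with the subunit prefixes, 8 Ndufaf and 4 Sdhaf assembly factors and Ndufa4l2 were left out. That left 84 entries among 31053 genes, under 83 symbols because Atp5o is held by 2 gene IDs. By name, 37 entries belong to complex I, 4 to complex II, 8 to complex III, 18 to complex IV and 17 to complex V. Ndufa4 is named for complex I and is known as a partner of complex IV, and 7 of the complex IV entries are isoforms used in particular tissues such as muscle.

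Complexes I and II take electrons from NADH and succinate, complex III hands them on to cytochrome c and complex IV passes them to oxygen, and complex V (ATP synthase) makes ATP from the proton gradient that complexes I, III and IV build. The mitochondrial DNA (mtDNA) encodes 13 core subunits, so each complex other than II is assembled from subunits of both genomes. T cells are known to raise respiration when they are activated and divide, neutrophils are known to rely mainly on glycolysis, and skeletal muscle is rich in respiratory chain protein.

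The samples came from mouse oral squamous carcinoma lines grown in C57BL/6J mice. The bulk RNA groups were untreated MOC1E1 tumours, untreated MOC1 tumours, cultured MOC1E1 cells and cultured MOC1 cells, with 3 libraries each. Part of the labels call MOC1E1 MOC1esc1. The single-cell groups, with 1 library each, were MOC1 and MOC1E1 tumours after anti-PD-1, anti-CTLA-4 or isotype antibody and MOC22 tumours after anti-PD-1 or isotype antibody, given into the peritoneum on days 3, 6 and 9 after tumour inoculation. Anti-PD-1 and anti-CTLA-4 block inhibitory receptors of T cells, and the isotype antibody is the control for both. The labels give tumours and cultures as untreated, although the deposited culture columns of both lines carry the words plus ifng in their names, which the labels do not explain. In the labels, T cells are named as the source for MOC1 RNA and for MOC22, and immune cells for MOC1E1, and no source used here gives the derivation of MOC1E1. Nothing in the labels says that libraries of a group came from separate mice or culture dishes, so the p-values below measure only the spread between these libraries.

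Bulk values were deposited as TPM (each transcript's share of a library, adjusted for transcript length, so that levels of different genes can be compared), and the depth behind them is unknown. Single-cell libraries held 14766019 to 28466596 gene UMIs (unique molecular identifiers, 1 per captured RNA molecule) and 2694 to 4724 kept cells, and libraries of a model shared 10 to 27 cell barcodes per pair. Summed epithelial markers came to 15928 to 17048 TPM in MOC1E1 tumours and 15479 to 16487 TPM in MOC1 tumours, and summed leukocyte markers to at most 8.7 TPM in any culture. The MOC1E1 and MOC22 single-cell tables held no cell above 5% mtDNA-encoded UMIs, whereas 347, 350 and 599 barcodes were above it in the MOC1 anti-PD-1, anti-CTLA-4 and isotype tables, so mtDNA-encoded levels are compared within a model only.

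Promoters are shown first for 5 members on which the bulk results below turn: Ndufa4 because its difference pointed in opposite directions in tumours and cultures, Uqcrh because it was the 1 member higher in both, Atp5k and Atp5j2 because their differences depended on the setting, and Cox8b as a muscle isoform. Each window is 300 bases from RefSeq on GRCm38.p6, from 250 bases before the gene start to 50 after it, all on the minus strand: Ndufa4 at chr6:11907401-11907700, Uqcrh at chr4:116075021-116075320, Atp5k at chr5:108434350-108434649, Atp5j2 at chr5:145191492-145191791 and Cox8b at chr7:140900397-140900696. Capitals mark matches, on either strand, to GCATGCGC (the core of the NRF1 motif, a regulator of respiratory genes) or its 10-letter form with GC in front, CCGGAAG (the ETS family, which includes GABPA) and AAGATGGCG (YY1).
Ndufa4: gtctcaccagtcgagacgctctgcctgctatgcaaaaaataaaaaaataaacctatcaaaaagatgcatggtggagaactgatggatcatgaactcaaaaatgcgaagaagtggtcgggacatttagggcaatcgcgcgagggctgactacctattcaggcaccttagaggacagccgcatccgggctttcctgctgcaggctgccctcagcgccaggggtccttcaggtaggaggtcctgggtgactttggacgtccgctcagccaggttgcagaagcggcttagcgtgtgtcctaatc
Uqcrh: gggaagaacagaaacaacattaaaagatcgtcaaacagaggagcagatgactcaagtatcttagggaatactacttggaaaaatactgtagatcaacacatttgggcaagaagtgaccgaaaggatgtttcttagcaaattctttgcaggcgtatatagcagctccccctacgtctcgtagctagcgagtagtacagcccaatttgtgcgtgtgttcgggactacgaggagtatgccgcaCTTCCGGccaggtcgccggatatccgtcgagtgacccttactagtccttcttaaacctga
Atp5k: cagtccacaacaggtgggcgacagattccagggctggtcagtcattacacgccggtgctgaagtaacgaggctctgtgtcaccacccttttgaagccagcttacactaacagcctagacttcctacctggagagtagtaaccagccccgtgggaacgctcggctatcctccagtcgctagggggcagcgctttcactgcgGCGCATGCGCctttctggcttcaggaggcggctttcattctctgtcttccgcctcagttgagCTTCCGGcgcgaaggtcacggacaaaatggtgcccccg
Atp5j2: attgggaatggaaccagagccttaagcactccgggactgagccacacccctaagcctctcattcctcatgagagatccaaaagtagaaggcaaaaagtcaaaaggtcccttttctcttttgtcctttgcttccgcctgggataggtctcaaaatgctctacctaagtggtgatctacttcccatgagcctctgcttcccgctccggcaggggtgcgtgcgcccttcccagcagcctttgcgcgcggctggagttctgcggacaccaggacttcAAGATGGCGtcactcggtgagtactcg
Cox8b: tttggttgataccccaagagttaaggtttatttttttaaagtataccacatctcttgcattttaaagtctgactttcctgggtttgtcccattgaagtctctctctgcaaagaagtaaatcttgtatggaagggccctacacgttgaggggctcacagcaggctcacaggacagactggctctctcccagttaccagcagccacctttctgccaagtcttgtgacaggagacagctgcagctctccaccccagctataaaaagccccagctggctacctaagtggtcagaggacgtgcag
Uqcrh held an ETS match read on the opposite strand, Atp5k an NRF1 and an ETS match that do not overlap, and Atp5j2 a YY1 match, while none of these letters stood in the Ndufa4 and Cox8b windows.

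Promoter windows were found for 67 of the 83 symbols, 72 windows in all. The NRF1 core GCATGCGC stood in 13.9% of member windows and 2.71% of all 32851 windows of this length, and the 10-letter form, which overlaps the core, in 6.94% and 0.971%. CCGGAAG stood in 22.2% of member windows against 8.86% of all, and AAGATGGCG in 9.72% against 1.40%. At least 1 of the core, ETS and YY1 strings stood in 37.5% of member windows and 12.1% of all, while GGGCGG (the GC box of Sp factors) was about as frequent in members, 38.9%, as in all windows, 35.7%. By complex, 12 of 35 windows of complex I, 2 of 3 of complex II, 3 of 5 of complex III, 3 of 13 of complex IV and 7 of 16 of complex V held at least 1 of the 3 strings. None of the 4 tissue isoform windows held any of the 3 strings. These are letter matches and were not tested as binding sites.

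In bulk RNA the members were among the more abundant transcripts of tumours and cultures. Summed over members, MOC1E1 tumours held 22310, 20531 and 22275 TPM and MOC1 tumours 22691, 23894 and 25568 TPM. MOC1E1 cultures held 17131, 16978 and 17037 TPM and MOC1 cultures 15846, 15927 and 15029 TPM. The groups did not overlap in either setting, with MOC1E1 below MOC1 in tumours and above it in cultures. The culture sums differed mainly in complex V, at a mean of 6997.2 against 5940.9 TPM, and complex I, at 5099.6 against 4726 TPM. Complexes II, III and IV were nearly level, at 440.6 against 455.1, 1752.4 against 1749.3 and 2758.8 against 2729.4 TPM. Much of the culture difference lay in Atp5b, at 2418 against 1759 TPM, and Ndufa4, at 906.8 against 511.7 TPM.

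Atp5b, the catalytic beta subunit of complex V, had the highest mean TPM of all members in every group, at 2263 ± 236 in MOC1E1 tumours, 2022 ± 104 in MOC1 tumours, 2418 ± 8.35 in MOC1E1 cultures and 1759 ± 17.2 in MOC1 cultures (SD, n = 3 libraries). The median member stood at 178.4, 196.9, 136.1 and 141.9 TPM in the same order of groups. Atp5e, the epsilon subunit of complex V, came next in tumours, at 1044 ± 189 TPM in MOC1E1 and 1269 ± 199 TPM in MOC1. In cultures Ndufa4 came next in MOC1E1, at 906.8 ± 25.03 TPM, and Atp5a1, the alpha subunit of complex V, in MOC1, at 677.8 ± 27.2 TPM. Cox7b2 and Cox8c, a testis-type isoform, were listed at 0 TPM in all 12 libraries. The second Atp5o gene ID was listed at 0 TPM in every tumour library and at 40.96 to 66.94 TPM in cultures, and the first ID at 204.5 to 297.9 TPM throughout, so Atp5o is uncertain wherever the assignment of transcripts could split its copies.

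MOC1E1 tumours were compared with MOC1 tumours by limma on log2(TPM + 1), with Benjamini-Hochberg adjustment over all 15125 genes tested and a call at an adjusted p of 0.05 or less. Of the 81 members tested, 18 fell and 1, Uqcrh, rose, and 62 did not pass, with differences of −0.52 to 0.73. Over all genes 11.9% were called lower and 6.70% higher, and the median difference was −0.13 for members and −0.04 for all genes, on the log2(TPM + 1) scale. Without adjustment 28 members had p under 0.05. Complex IV held 9 of the lower members out of 16 tested, complex I 6 of 37, and complexes II, III and V 1 each of 4, 8 and 16. With median-of-ratios scaling 0 of 81 members were higher and 9 lower, where 10.2% of all genes were higher and 12.1% lower. The count of lower members was 10, 9, 8 and 9 when the tumour columns numbered MOC1 4, MOC1 5, MOC1E1 2 and MOC1E1 1 were left out in turn. Over all genes 5.46%, 7.22%, 8.23% and 8.08% were lower in these fits.

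**Figure D1:**
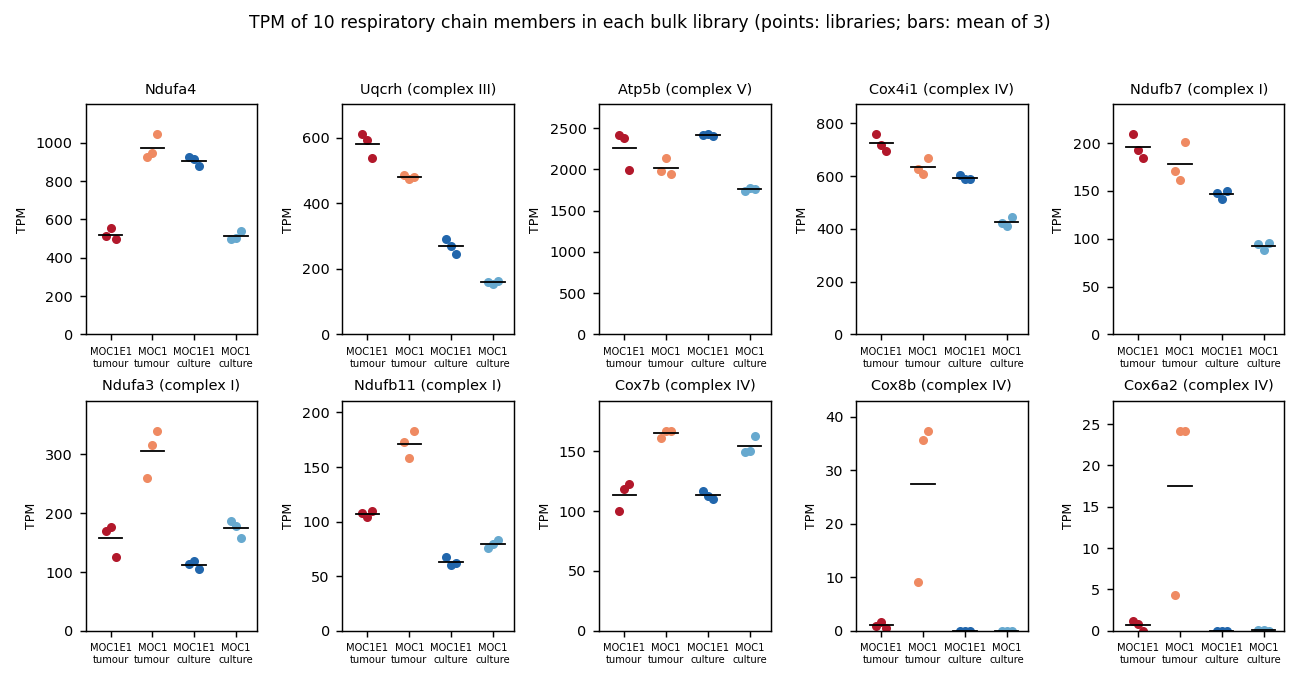
TPM of 10 members in each bulk library, with groups along the horizontal axis (points are libraries, bars are means of 3, and every vertical axis starts at 0). Ndufa4 lies lower in MOC1E1 than in MOC1 tumours and higher in MOC1E1 than in MOC1 cultures, and Cox8b and Cox6a2 exceed 4 TPM only in MOC1 tumours.

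Ndufa4 had 511, 555 and 498 TPM in MOC1E1 tumours, against 928, 947 and 1043 TPM in MOC1 tumours. The groups were far apart, and Ndufa4 fell by 0.90 on the log2 scale (SE 0.0787, limma adjusted p = 0.00057). Ndufa3, an accessory subunit of complex I, had 170.2, 176.4 and 126.3 TPM in MOC1E1 tumours against 260.5, 315.2 and 339.9 TPM in MOC1 tumours. It fell by 0.96 (SE 0.151, limma adjusted p = 0.00602), with no overlap of the groups. Ndufb11, a complex I subunit encoded on the X chromosome, had 107.5, 103.8 and 110.02 TPM in MOC1E1 tumours and 173, 158.2 and 183.2 TPM in MOC1 tumours, a fall of 0.67 (limma adjusted p = 0.00218). Ndufa1, another X-linked complex I subunit, fell by 0.61 (limma adjusted p = 0.00871), and Cox7b, an X-linked complex IV subunit, by 0.54 (limma adjusted p = 0.00827), both without overlap of the groups. These 5 and Cox8b were the members still called lower in tumours under every processing alternative and every left-out library that was run.

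The other lower members in tumours were smaller changes of ubiquitous subunits. They were Ndufa8 and Ndufa6 of complex I at −0.44 and −0.34, Sdhd, a membrane anchor of complex II, at −0.37, Uqcr10 of complex III at −0.49, Atp5j2 of complex V at −0.38, and Cox6b1, Cox8a, Cox7a2, Cox6c and Cox5a of complex IV at −0.47, −0.35, −0.34, −0.27 and −0.26. Each of these 10 lost its call when at least 1 library was left out. Uqcrh, the hinge subunit of complex III that supports the docking of cytochrome c1 with cytochrome c, had 609.6, 592.3 and 539 TPM in MOC1E1 tumours and 485, 475 and 479 TPM in MOC1 tumours. It rose by 0.27 (SE 0.072, limma adjusted p = 0.0371), without overlap, but lost the call in 5 of 6 fits that left out a library, where the adjusted p reached 0.119. Of the 5 reference subunits, Ndufs1 (an iron-sulphur subunit of complex I), Sdha (the flavoprotein of complex II), Uqcrc1 (a core protein of complex III), Cox4i1 (the ubiquitous isoform of subunit 4 of complex IV) and Atp5b did not pass in tumours, with differences of 0.05, −0.00, −0.10, 0.19 and 0.16.

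Muscle isoforms of complex IV had the largest differences of all members. Cox8b had 0.9, 1.57 and 0.62 TPM in MOC1E1 tumours, against 9.03, 35.71 and 37.34 TPM in MOC1 tumours, and 0 TPM in every culture. Cox6a2 had 1.22, 0.81 and 0 TPM in MOC1E1 tumours against 4.29, 24.18 and 24.11 TPM in MOC1 tumours, and Cox7a1 had 1.34, 6.33 and 1.45 TPM against 12.08, 9.3 and 27.67 TPM. All 3 separated the groups, and on the log2(TPM + 1) scale Cox8b fell by 3.60, Cox6a2 by 3.23 and Cox7a1 by 2.17 (limma adjusted p = 0.0037, 0.0116 and 0.0263). Cox6a2 lost the call without 1 library (adjusted p = 0.0508) and Cox7a1 without any of 4. The other 2 tissue isoforms tested in tumours, Cox4i2 and Cox6b2, did not pass, at 0.46 and −0.52.

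Even in MOC1 tumours these isoforms were a small part of their subunit. Cox8b made up 0.106 to 0.263% of Cox8a plus Cox8b in MOC1E1 tumours and 1.23 to 4.51% in MOC1 tumours, Cox6a2 0 to 0.171% and 0.579 to 2.83% of Cox6a1 plus Cox6a2, and Cox7a1 1.17 to 4.68% and 5.69 to 14.7% of Cox7a2 plus Cox7a1. Skeletal muscle markers moved with them: 11 of 12 were called lower in MOC1E1 tumours, with a summed level of 31.5 to 108 TPM in MOC1E1 tumours and 544.5 to 1958 TPM in MOC1 tumours. The MOC1 library with the least Cox8b and Cox6a2 was also the one at 544.5 TPM of muscle markers. Leukocyte markers summed to 117.3 to 263.4 TPM in MOC1E1 tumours against 456.2 to 525.9 TPM in MOC1 tumours, with 3 of 8 called lower. The part of muscle and leukocyte RNA in the tumour differences was not tested, and in bulk RNA fewer cells of a type cannot be told apart from less RNA per cell.

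In cultures, where summed muscle markers came to 40.5 to 45.8 TPM in MOC1E1 and 34 to 38 TPM in MOC1, members were called in both directions in similar numbers. Of 77 members tested among 13975 genes, 20 rose and 18 fell in MOC1E1 cultures relative to MOC1 cultures, and 39 did not pass, with differences of −0.22 to 0.23. Over all genes 20.2% were called higher and 33.2% lower, and the median difference was 0.04 for members and −0.06 for all genes. With median-of-ratios scaling the members' split was 27 higher and 12 lower, where 26.4% of all genes were higher and 28.1% lower. By complex, 9 members of complex I rose and 11 fell, complex III had 2 in each direction, complex IV 2 higher and 4 lower, complex II 1 lower, and complex V 7 higher and 0 lower of 17.

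Ndufa4 had 926, 915 and 879 TPM in MOC1E1 cultures, against 497, 501 and 537 TPM in MOC1 cultures. It rose by 0.82 (SE 0.0473, limma adjusted p = 1.02e-05), which is the opposite direction to tumours. Uqcrh rose by 0.74 (limma adjusted p = 8.97e-05), from libraries at 289.9, 269.4 and 244.9 TPM in MOC1E1 cultures and 160.8, 153.6 and 163.5 TPM in MOC1 cultures. Ndufb7, an intermembrane-space subunit of complex I, had 147.6, 141.8 and 149.7 TPM in MOC1E1 cultures and 94.14, 88.43 and 95.41 TPM in MOC1 cultures, a rise of 0.65 (limma adjusted p = 3.36e-05). Cox4i1 rose by 0.48, with 605.8, 588.4 and 588.4 TPM in MOC1E1 cultures and 422.9, 409.97 and 445.6 TPM in MOC1 cultures (limma adjusted p = 0.000117).

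The 7 complex V members that rose in cultures included the main parts of its catalytic head and stalks. Atp5b rose by 0.46 (limma adjusted p = 6.63e-05), with 2421, 2425 and 2409 TPM in MOC1E1 cultures against 1739, 1771 and 1767 TPM in MOC1 cultures. Atp5a1 rose by 0.27, Atp5d (the delta subunit of the head) by 0.44, the peripheral stalk members Atp5o, Atp5f1 and Atp5j by 0.33, 0.22 and 0.26, and Atp5k by 0.29. None of these 7 was called in tumours, where they lay between −0.32 and 0.18. The remaining members that rose in cultures were Ndufb5 at 0.47, Ndufb6 at 0.39, Ndufa13 at 0.30, Ndufc1 at 0.30, Ndufv1 (the flavoprotein that binds NADH) at 0.28, Ndufb10 at 0.26 and Ndufa9 at 0.17 in complex I, Uqcr11 of complex III at 0.36 and Cox7c of complex IV at 0.15.

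In cultures Ndufa3 was the member with the largest fall, 0.62 on the log2 scale (SE 0.0741, limma adjusted p = 0.00037), with 113.3, 119.1 and 105.4 TPM in MOC1E1 cultures and 186.2, 178.4 and 157.9 TPM in MOC1 cultures. Ndufa8 fell by 0.52, Cox7b by 0.44, Uqcrq by 0.44, Ndufs3 (an iron-sulphur-arm subunit of complex I) by 0.38, Ndufa1 by 0.36, Ndufv2 by 0.35 and Sdhd by 0.35. The 10 members lower in both tumours and cultures were Ndufa3, Ndufb11, Ndufa1, Ndufa8, Ndufa6, Sdhd, Uqcr10, Cox7b, Cox6b1 and Cox5a. They come from complexes I to IV, and none from complex V. A further 8, among them Ndufs3, Uqcrq and Cox7a2l, were lower in cultures and not called in tumours.

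**Figure D2:**
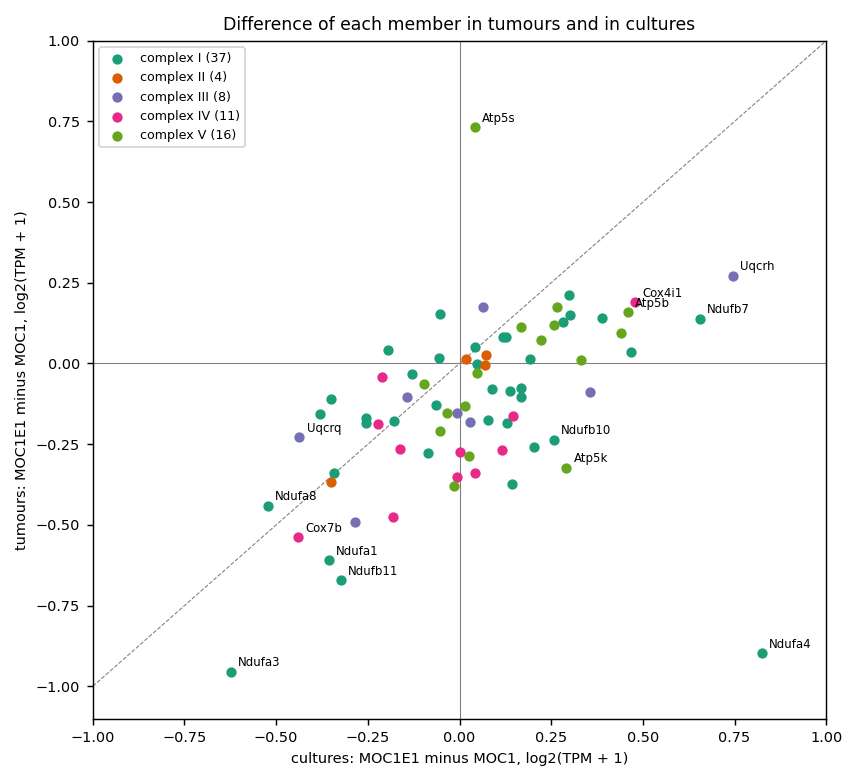
MOC1E1 minus MOC1 difference of 76 members in tumours (vertical axis) against the same difference in cultures (horizontal axis), both on the log2(TPM + 1) scale, coloured by complex, with the dashed line at equal differences. Ndufa4 stands alone at the lower right, and 57 of the 76 points lie below the line. Over all genes, the tumour difference minus the culture difference was below 0 in 7554 of 16813.

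Whether the difference between lines depended on the setting was tested by limma over all 12 libraries, as the tumour difference minus the culture difference, among 16813 genes. Of 82 members tested, 17 were lower in tumours relative to cultures and 1, Ndufs3, was higher (0.22, limma adjusted p = 0.0483). Over all genes 6.61% were lower and 10.2% higher, and the median was −0.15 for members and 0.04 for all genes. With median-of-ratios scaling the split was 17 lower and 0 higher, where 9.57% of all genes were lower and 8.2% higher. Leaving out 1 library at a time gave 6 to 19 lower members. The count was 10 and 7 without the MOC1 tumour columns numbered 4 and 5, 9 and 6 without the MOC1 culture columns S4 and S5, and 7, 8 and 8 without the MOC1E1 culture columns S10, S11 and S12. Among the 76 members tested in both settings, 28 pointed lower and 23 higher in both, 22 were lower in tumours and higher in cultures, and 3 the other way round. These joint counts were not made over all genes. Of all genes tested, 8194 of 15125 pointed lower in tumours, 6121 of 13975 higher in cultures, and 7554 of 16813 were below 0 in the contrast.

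Ndufa4 had the smallest p among the members in this contrast, at −1.72 (SE 0.0887, limma adjusted p = 5.64e-07). Uqcrh was at −0.47 (limma adjusted p = 0.00584), since its rise in tumours was smaller than that in cultures. Ndufb7 and Ndufb10 were at −0.52 and −0.49 (limma adjusted p = 0.00905 and 0.00359), and Cox8b and Cox6a2 at −3.60 and −3.15 (limma adjusted p = 0.00146 and 0.0103), and both of these were at or near 0 TPM in every culture. These 6 kept their call under every alternative and left-out library. Atp5k was at −0.61 (limma adjusted p = 0.0477), with 642.6, 699 and 594 TPM in MOC1E1 tumours against 672, 767 and 1014 TPM in MOC1 tumours, and 165, 166 and 149.7 TPM in MOC1E1 cultures against 127, 117 and 148.9 TPM in MOC1 cultures. Atp5j2 was at −0.37 (limma adjusted p = 0.0214), and it differed in tumours only, by −0.38, against −0.01 in cultures.

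The 13 mtDNA-encoded subunits did not follow the nuclear members in tumours. In cultures both mean sums were higher in MOC1E1, at 17048.5 against 15600.7 TPM for members and 25710.3 against 21683.9 TPM for mtDNA-encoded genes. In tumours 7 of the 13 rose and 0 fell in MOC1E1, with a median of 0.49: mt-Nd1 (0.51), mt-Nd2 (0.49), mt-Nd4l (0.71), mt-Nd5 (0.79) and mt-Nd6 (0.81) of complex I, mt-Co1 (0.34) of complex IV and mt-Atp8 (0.61) of complex V. In cultures 4 rose and 0 fell, with a median of 0.23, namely mt-Nd1, mt-Nd2, mt-Cytb and mt-Atp8. Over all genes 6.70% were called higher and 11.9% lower in tumours, and 20.2% higher and 33.2% lower in cultures. Summed mtDNA-encoded TPM per summed member TPM was 3.15, 3.33 and 3.59 in MOC1E1 tumours against 2.58, 2.02 and 2.11 in MOC1 tumours. It was 1.47, 1.24 and 1.81 in MOC1E1 cultures and 1.40, 1.32 and 1.45 in MOC1 cultures. The ratio separated the tumours, at 3.36 ± 0.218 in MOC1E1 and 2.24 ± 0.30 in MOC1 (SD, n = 3), and overlapped in cultures. With the TPM rescaled after the mtDNA-encoded genes were set aside, 15 members were lower and 1 was higher in tumours. Of all genes, 11% were lower and 7.63% higher in that fit. The mtDNA-encoded values are uncertain in part, because a pseudogene copy of mt-Atp6, Gm10925, held 9265 to 13469 TPM in MOC1E1 cultures and 7664 to 8204 TPM in MOC1 cultures, where mt-Atp6 itself held 49.05 to 153.02 TPM and 42.64 to 175.23 TPM.

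Other genes of the pathway gave mixed counts in tumours, where 6.70% of all genes were called higher and 11.9% lower. Assembly factors (8.16% and 10.2%) and mitochondrial ribosome genes (5.13% and 8.97%) lay near these shares. Assembly factors had 4 higher and 5 lower of 49, including Ndufaf6 (a complex I assembly factor, 1.10), Ecsit (0.58) and Cox19 (a complex IV assembly factor, −0.56), and electron carriers, the genes of cytochrome c and coenzyme Q synthesis, 1 of each of 14, with Coq6 at 0.70. Citric acid cycle genes had 0 higher and 3 lower of 14: Idh2, the NADP-dependent isocitrate dehydrogenase, at −0.58, and Idh3g and Idh3a, subunits of the NAD-dependent one, at −0.51 and −0.28. Genes of mitochondrial transcription and biogenesis had 1 of each of 19, Tfam, the mtDNA packaging factor, at 0.56 and Polg, the mtDNA polymerase, at −0.49. Glycolysis genes had 5 higher and 0 lower of 18, including Eno1 (0.82), Hk1 (0.63) and Aldoc (1.34). Mitochondrial ribosome genes had 4 higher and 7 lower of 78, and cytosolic ribosome genes 11 higher and 10 lower of 78.

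In cultures 20.2% of all genes were called higher and 33.2% lower. Assembly factors (20.8% and 39.6%), citric acid cycle genes (14.3% and 35.7%) and mitochondrial ribosome genes (23.1% and 29.5%) lay near these shares. Assembly factors had 10 higher and 19 lower of 48, with Cox20 at 1.12, Coa5 at −0.82 and Coa3 at −0.67. Citric acid cycle genes had 2 higher and 5 lower of 14. Idh2 (−0.48), Idh3g (−0.30), Idh3a (−0.20), Tfam (0.38) and Polg (−0.46) were called in the same direction as in tumours. Biogenesis genes had 5 higher and 3 lower of 19, with Esrra, a nuclear receptor that activates respiratory genes, at −0.64. Glycolysis genes split 6 higher and 6 lower of 18, with Hk1 at 1.51 and Slc16a3, a lactate exporter, at −2.11, and cell cycle genes had 11 higher and 2 lower of 20. Mitochondrial ribosome genes had 18 higher and 23 lower of 78, and cytosolic ribosome genes 37 higher and 15 lower.

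In the single-cell data a value is the UMIs of a gene summed over all cells of a class and given as counts per 1000000 UMIs of that class (CPM). With 1 library per treatment there is no test of a treatment, both antibodies of a model share its isotype library, and the intervals are exact 95% Poisson intervals that cover counting error only. CPM is not adjusted for transcript length, so it is compared between classes and treatments and not between genes. The CD8 T-like class was built from clusters with many cells holding Cd3e and CD8 transcripts and few holding Cd4 or Foxp3. Leading genes could keep a cluster out but were not needed to bring it in. MOC1 cluster 3, 77.0% of the isotype class, had no CD8 marker in the lead, with Cd8a in 64.0% of cells. Dividing clusters were mixed, with Cd4 in 19.4% of cells of MOC1 cluster 9 and 19.0% of MOC1E1 cluster 14. Clusters kept out by markers of another class made up 4.40%, 1.34% and 1.64% of kept cells after anti-PD-1, anti-CTLA-4 and isotype in MOC1. They made up 0 in MOC1E1, and 36.2% and 10.2% after anti-PD-1 and isotype in MOC22. The clusters kept out still carried CD8 transcripts, with Cd8a in 91.0% of cells of MOC1 cluster 12 and in 99.2% and 87.8% of MOC22 clusters 0 and 5. In MOC22 they held 976 cells after anti-PD-1 and 276 after isotype, beside 1083 and 1098 in the class.

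Member transcripts took a larger share of CD8 T-like RNA after anti-PD-1 than after isotype antibody in MOC1 and MOC22, and about the same share in MOC1E1. In MOC1 the members summed to 27072 CPM (26969 to 27175) over 1183 cells after anti-PD-1 and 24723 CPM (24646 to 24800) over 2026 cells after anti-CTLA-4, against 22409 CPM (22263 to 22556) over 697 cells after isotype. In MOC22 they summed to 24762 CPM (24652 to 24873) over 1083 cells after anti-PD-1 and 21123 CPM (21027 to 21219) over 1098 cells after isotype. In MOC1E1 they summed to 27343 CPM over 646 cells after anti-PD-1, 26259 CPM over 1369 cells after anti-CTLA-4 and 27227 CPM over 186 cells after isotype. Against isotype, the log2 ratio was 0.27 for anti-PD-1 and 0.14 for anti-CTLA-4 in MOC1, 0.23 for anti-PD-1 in MOC22, and 0.01 (−0.01 to 0.02) for anti-PD-1 and −0.05 for anti-CTLA-4 in MOC1E1. The MOC1E1 isotype level rests on 186 cells, and with CD8 cells chosen by their own transcripts it was 23560 CPM, beside 22426 CPM in MOC1 and 19762 CPM in MOC22.

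mtDNA-encoded transcripts ran the other way in MOC1 and MOC22. In MOC1 CD8 T-like cells they summed to 18803 CPM after anti-PD-1, 19546 CPM after anti-CTLA-4 and 28141 CPM after isotype, and in MOC22 to 22148 CPM after anti-PD-1 and 28332 CPM after isotype. In MOC1E1 they summed to 28850, 31025 and 31850 CPM after anti-PD-1, anti-CTLA-4 and isotype. There were 1.44, 1.26 and 0.796 member UMIs for each mtDNA-encoded UMI in MOC1 cells after anti-PD-1, anti-CTLA-4 and isotype. The same ratio was 0.948, 0.846 and 0.855 in MOC1E1 cells, and MOC22 cells had 1.12 after anti-PD-1 and 0.746 after isotype.

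**Figure D3:**
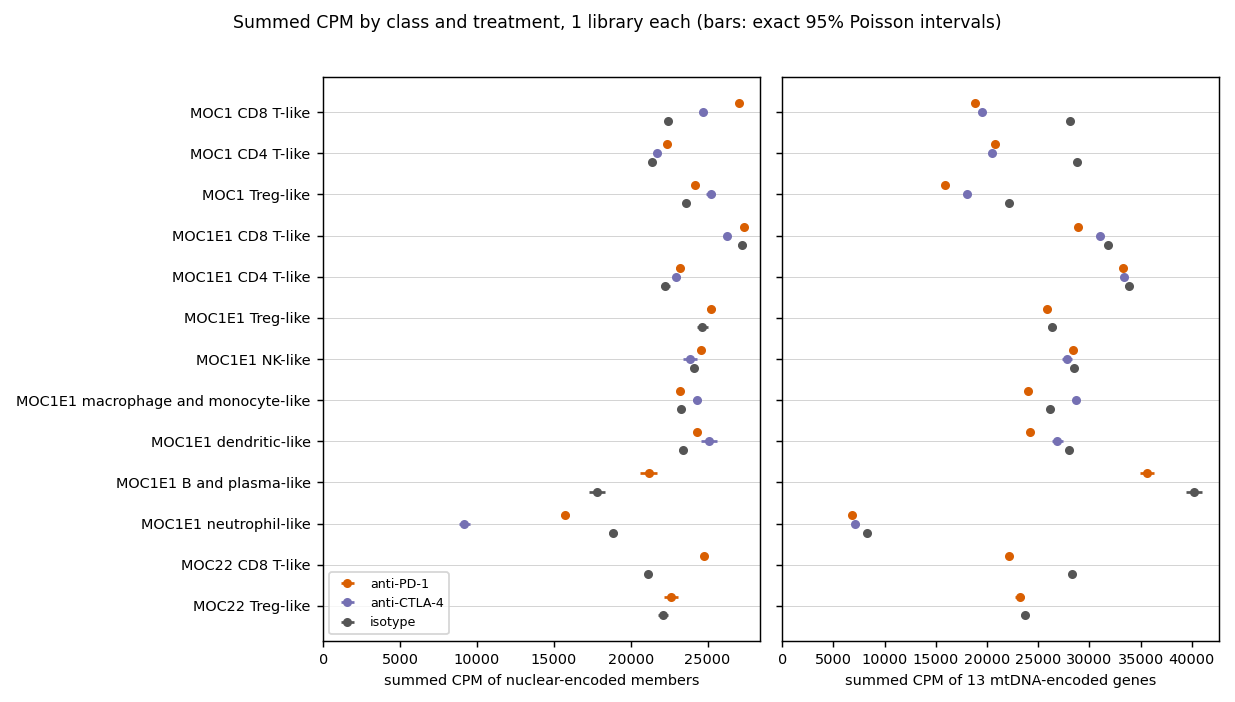
Summed CPM of the members (left) and of the 13 mtDNA-encoded genes (right) in each class with at least 50 cells, 1 library per point, with exact 95% Poisson intervals. Neutrophil-like cells stand lowest on the right and, after anti-PD-1 and anti-CTLA-4, on the left, and in MOC1 T-like classes the isotype library stands lowest on the left, where the spread is small in CD4 T-like and Treg-like cells, and highest on the right.

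The higher share in MOC1 and MOC22 was spread over many small differences. Among the 75 members that passed the filter, a ratio of 1.5 or more was reached after anti-PD-1 in MOC1 by 2, Ndufa11 and Cox5a, where 8.31% of all 6784 genes were higher and 5.73% lower by that ratio, and no member was lower. After anti-CTLA-4 in MOC1 it was reached by 1, Cox5a, and by none downwards, where 10.3% of genes were higher and 5.93% lower. In MOC22 it was reached by 2, Ndufv3 and Ndufa1, and by none downwards, where 16.7% of genes were higher and 7.97% lower. In MOC1E1 no member passed it in either direction, where 4.65% of genes were higher and 6.04% lower after anti-PD-1 and 6.79% higher and 11.2% lower after anti-CTLA-4. By sign alone, 73, 62 and 56 of 75 members were above isotype after MOC1 anti-PD-1, MOC1 anti-CTLA-4 and MOC22 anti-PD-1, and 37 and 22 of 75 after MOC1E1 anti-PD-1 and anti-CTLA-4. Over all genes the counts were 3945 of 6784, 4055 of 6765, 4505 of 7291, 3428 of 7338 and 2928 of 7301 in the same order. The median log2 ratios of members were 0.28, 0.15, 0.15, −0.00 and −0.12 in that order, beside 0.07, 0.09, 0.12, −0.02 and −0.10 over all genes.

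Cox5a, the heme-side matrix subunit of complex IV, had 609.7 CPM after anti-PD-1 and 677.2 CPM after anti-CTLA-4 in MOC1, against 405.5 CPM after isotype. Ndufa11, a membrane-arm subunit of complex I, had 234.2 and 213.8 CPM against 152.5 CPM. In MOC22, Ndufv3, an accessory subunit of the NADH-binding module, had 319.6 CPM after anti-PD-1 and 202.3 CPM after isotype, and Ndufa1 342.8 and 226.2 CPM. Ndufb8 was among the 5 highest ratios after anti-PD-1 in all 3 models, at 237, 237.8 and 219.5 CPM against 168.7, 191 and 151.9 CPM after isotype in MOC1, MOC1E1 and MOC22. At the low end, Cox7a2l, a factor of complex III and IV supercomplexes, was lower after anti-PD-1 in MOC1 (256 against 375.3 CPM) and MOC22 (322.5 against 419.1 CPM) and higher in MOC1E1 (356.2 against 316 CPM). Ndufa4 was lower in MOC22 after anti-PD-1 (319.4 against 429.6 CPM) and in MOC1E1 after anti-CTLA-4 (404.2 against 592.2 CPM).

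Of the reference subunits, Cox4i1 had 970.9, 995.2 and 859.4 CPM in MOC1 after anti-PD-1, anti-CTLA-4 and isotype, 1052, 1014 and 917.9 CPM in MOC1E1, and 967.4 and 752 CPM in MOC22 after anti-PD-1 and isotype. It was above isotype in each of these comparisons. Atp5b had 568.9, 515 and 500.8 CPM in MOC1 in the same order, 436.2, 339.3 and 486.4 CPM in MOC1E1, and 378.4 and 386.1 CPM in MOC22, and was above isotype in MOC1 only. Uqcrc1 had 174.2, 157.4 and 143.6 CPM in MOC1, 143.8, 102.1 and 136 CPM in MOC1E1, and 116.6 and 132.3 CPM in MOC22. Ndufs1 and Sdha were low, between 21.59 and 37.1 CPM and between 77.14 and 94.12 CPM over all 8 CD8 T-like sums. Cox8b had no UMI in MOC1 CD8 T-like cells, and tissue isoforms together gave 3.07 to 6.69 CPM in CD8 T-like cells of the 8 libraries.

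**Figure D4:**
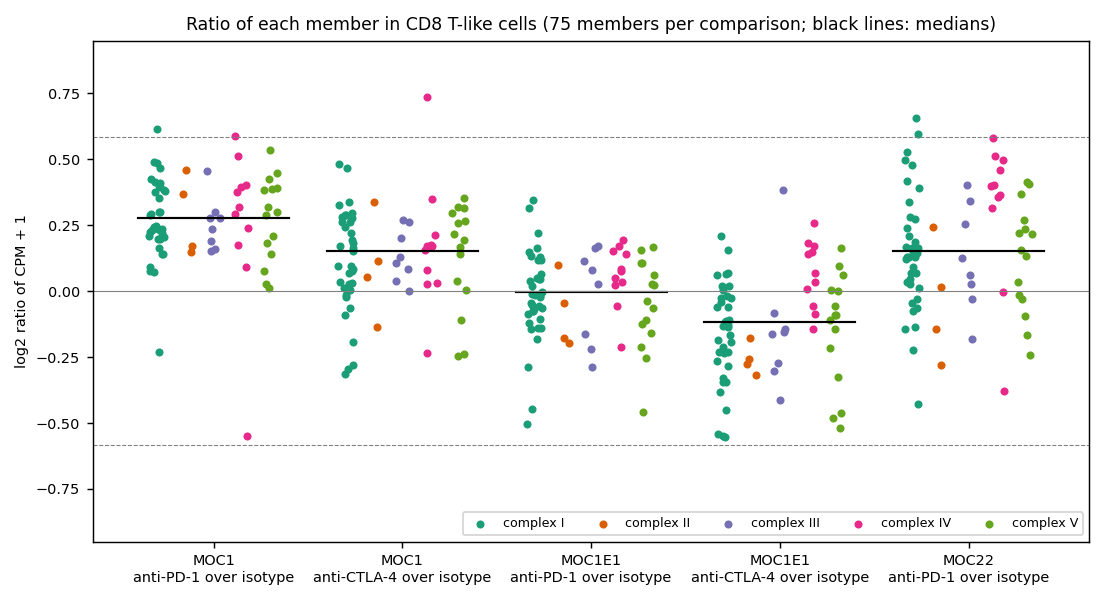
Log2 ratio of CPM + 1 to isotype for each of 75 members in CD8 T-like cells, in 5 comparisons along the horizontal axis, coloured by complex, with black lines at the medians and dashed lines at a ratio of 1.5 either way. The MOC1 anti-PD-1 points lie above 0 for 73 members, where 3945 of all 6784 genes were above isotype, and the MOC1E1 points are centred on or below 0.

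The comparison of treatments also depends on what the members are divided by and on which cells fill the class. Cytosolic ribosome transcripts, the largest part of the denominator, were lower by a median of 0.31 and 0.46 on the log2 scale in MOC1 after anti-PD-1 and anti-CTLA-4 and by 0.51 in MOC22 after anti-PD-1. Per 1000000 UMIs other than mtDNA-encoded and cytosolic ribosome genes, members stood at 38197, 33858 and 35260 in MOC1 after anti-PD-1, anti-CTLA-4 and isotype and at 34143 and 35115 in MOC22 after anti-PD-1 and isotype. The log2 ratio was then 0.12 for anti-PD-1 and −0.06 for anti-CTLA-4 in MOC1 and −0.04 in MOC22, so the direction turned in the last 2. In MOC1E1 the anti-CTLA-4 ratio of −0.05 also turned, to 0.14 with CD8 T-like cells chosen by CD8 transcripts, 0.11 with clusters built without the members and 0.05 with doublets kept, and the anti-PD-1 ratio of 0.01 came to 0.13, 0.13 and 0.08 in these 3 settings. Of the glycolysis genes, 12 of 15 were higher by a ratio of 1.5 or more after anti-PD-1 in MOC1, as were 6 of 14 after anti-CTLA-4, and 14 of 14 after anti-PD-1 in MOC22, against 4 of 16 and 1 of 16 in MOC1E1. Cell cycle genes were higher by that ratio in 13 and 14 of 19 in MOC1 after anti-PD-1 and anti-CTLA-4 and in 0 of 19 in MOC22. Their part in the members' ratios was not tested.

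Member levels differed between clusters, and the libraries filled different clusters. The largest CD8 T-like cluster differed between libraries: in MOC1 it was cluster 7, led by Prf1 and Lag3, after anti-PD-1 (45.7% of the class), cluster 0, led by Ly6c2 and Il12rb2, after anti-CTLA-4 (73.7%) and cluster 3, led by Bcl2 and Klf2, after isotype (77.0%). In cluster 3 the members summed to 20291, 18414 and 19406 CPM after anti-PD-1, anti-CTLA-4 and isotype, and in cluster 13, led by Xcl1 and Ccl1, to 27605, 27052 and 27139 CPM. Dividing cells, cluster 9 with Hist1h2ap and Pclaf in the lead, had 30478 CPM after anti-PD-1 and 27777 CPM after anti-CTLA-4. In MOC22 the cluster led by Dapl1 and Ccr9 held 71.4% of the isotype class at 16894 CPM, while the dividing cluster stood at 29290 CPM after anti-PD-1 and 28840 CPM after isotype and the cluster led by Ccl1 and Xcl1 at 24228 and 24962 CPM. In MOC1E1 the cluster led by Cd8a and Cd8b1 stood at 27454 CPM after anti-PD-1 and 24923 CPM after anti-CTLA-4, that led by Cd8b1 and Gzmk at 23956, 23570 and 23629 CPM after anti-PD-1, anti-CTLA-4 and isotype, and the dividing cluster at 29540 CPM after anti-PD-1 and 29807 CPM after anti-CTLA-4. In MOC1 clusters 3 and 13 mtDNA-encoded CPM was highest after isotype, at 24546, 25325 and 30274 in cluster 3 and 19393, 21660 and 25531 in cluster 13.

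**Figure D5:**
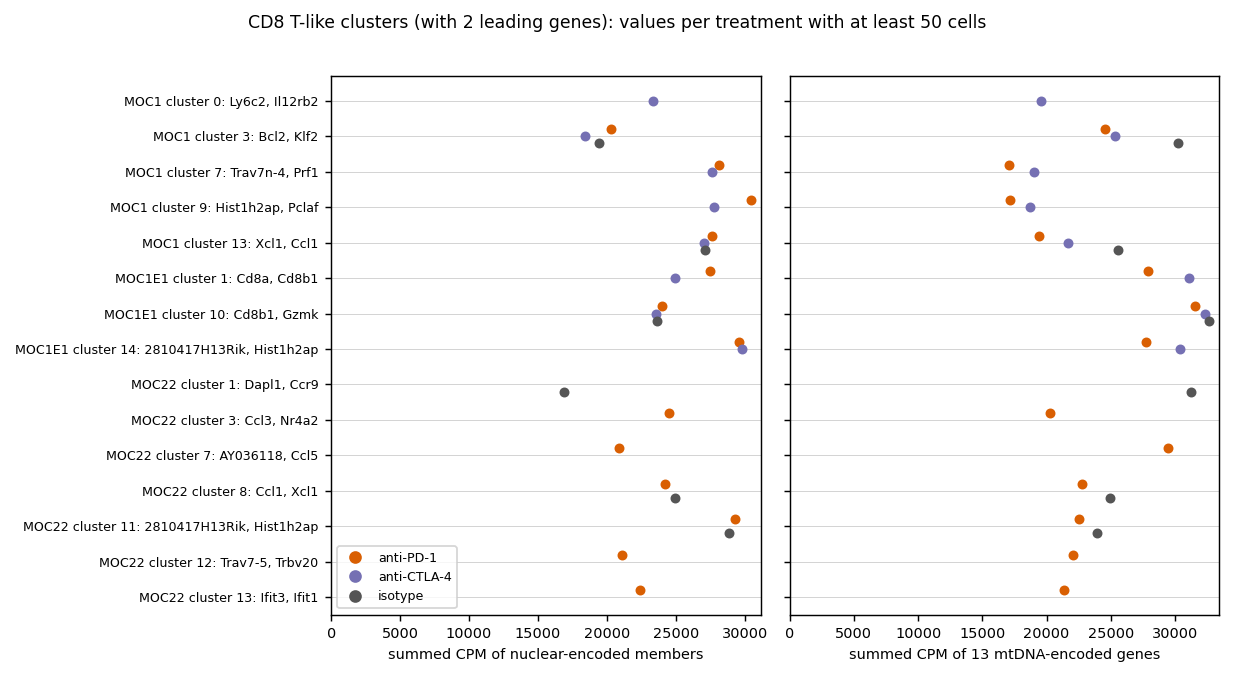
Summed CPM of the members (left) and of the 13 mtDNA-encoded genes (right) in each CD8 T-like cluster, for each treatment with at least 50 cells. Clusters differ by up to 16894 against 30478 CPM of members, while the treatments lie between 27052 and 27605 CPM in MOC1 cluster 13, 18414 and 20291 CPM in MOC1 cluster 3, 27777 and 30478 CPM in MOC1 cluster 9 and 24923 and 27454 CPM in MOC1E1 cluster 1.

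MOC1 cells also carried 4 hashtag labels per library, whose meaning the labels do not give. Over the 4 hashtags, members in CD8 T-like cells ranged over 26040 to 27600 CPM after anti-PD-1, 23160 to 25400 CPM after anti-CTLA-4 and 21450 to 23500 CPM after isotype. The anti-PD-1 range did not meet the other 2, and the anti-CTLA-4 and isotype ranges overlapped. Member UMIs per mtDNA-encoded UMI ranged over 1.36 to 1.54, 1.19 to 1.31 and 0.73 to 0.899, without overlap. The isotype range of this ratio also lay below both antibodies in CD4 T-like cells, at 1.01 to 1.13, 0.989 to 1.13 and 0.727 to 0.808. The same held in Treg-like cells, at 1.33 to 1.63, 1.3 to 1.44 and 1.02 to 1.11. In CD4 T-like cells the member ranges overlapped, at 21850 to 22810, 21110 to 22300 and 20810 to 22210 CPM. Those of Treg-like cells overlapped as well, at 22760 to 25020, 23530 to 27080 (3 hashtags) and 22650 to 24040 CPM. The hashtags of a treatment share 1 library and are not taken as replicates of it.

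In MOC1 the differences between treatments were smaller in the other T cell classes than in CD8 T-like cells. In MOC1 CD4 T-like cells members summed to 22364, 21689 and 21385 CPM after anti-PD-1, anti-CTLA-4 and isotype, and in Treg-like cells to 24209, 25192 and 23566 CPM. Their mtDNA-encoded sums were lower after both antibodies than after isotype, at 20769, 20448 and 28744 CPM in CD4 T-like cells and 15937, 18074 and 22120 CPM in Treg-like cells. In MOC1E1 the members of CD4 T-like cells stood at 23178, 22977 and 22253 CPM, a log2 ratio of 0.06 after anti-PD-1 against 0.01 in CD8 T-like cells, of NK-like cells at 24545, 23871 and 24112 CPM and of macrophage and monocyte-like cells at 23200, 24322 and 23285 CPM. B and plasma-like cells had 21160 CPM over 66 cells after anti-PD-1 and 17827 CPM over 76 cells after isotype, with the highest mtDNA-encoded sums of any class, 35581 and 40184 CPM.

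Neutrophil-like cells of MOC1E1 had lower member levels than every other class after anti-PD-1 and anti-CTLA-4, while after isotype they stood above B and plasma-like cells, at 17827 CPM, and MOC22 CD4 T-like cells, at 17661 CPM. Members summed to 15721 CPM over 547 cells after anti-PD-1, 9182.9 CPM (8827.6 to 9548.8) over 253 cells after anti-CTLA-4 and 18835 CPM (18583 to 19090) over 694 cells after isotype. After anti-CTLA-4, 64 of 72 members were lower than after isotype by a ratio of 1.5 or more and 0 were higher, where 40.0% of all 3679 genes were lower and 13.9% higher by that ratio, and the median log2 ratio was −1.22 for members and −0.40 for all genes. The fall was not particular to members. By that ratio 30 of 34 mitochondrial ribosome genes, 8 of 12 assembly factors and 4 of 6 citric acid cycle genes were lower and 0 higher. Cytosolic ribosome genes had 32 lower and 1 higher of 78, and glycolysis genes 3 lower and 5 higher of 15. Cox4i1 had 559.8, 408.6 and 614.4 CPM after anti-PD-1, anti-CTLA-4 and isotype, and Atp5b 214, 131.3 and 255.5 CPM. mtDNA-encoded sums were closer, at 6799.4, 7139.8 and 8267.5 CPM. The gap was present in both clusters with at least 50 cells of each treatment: 22432, 9101.9 and 23626 CPM in the cluster led by Irg1 and Cxcr2, and 11830, 8180.4 and 13618 CPM in that led by Hcar2 and Cxcl2. These cells were shallow, with a median of 1420, 968 and 1369.5 UMIs per cell after anti-PD-1, anti-CTLA-4 and isotype, and the part of depth or RNA quality in the gap was not tested.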

How the data were processed

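Bulk TPM values were deposited by the authors, with kallisto 0.46.0 and Trimmomatic 0.36 named in the submitters' processing notes, and single-cell UMI counts were deposited by the authors as Cell Ranger matrices (version 3.0.2 in the same notes). The notes list mm10 and GRCh38 without a role. Bulk tables were filtered at 1 TPM in 3 libraries and fitted as log2(TPM + 1) with limma 3.58.1 (trend), tumours and cultures apart and then together for the tumour difference minus the culture difference, with Benjamini-Hochberg adjustment over all genes tested. Tumour and culture tables were normalised separately.

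Cells with at least 300 genes and at most 10% mtDNA-encoded UMIs were kept. The cells with the highest scrublet doublet scores were then removed from each library, in a number set by its size (0.8% per 1000 cells). The rest were clustered per model with scanpy 1.11.5 (2000 variable genes, 30 components, 15 neighbours, resolution 1). Classes were named from listed markers; the rule that scores them was set after the clusters were seen. Classes needed 50 cells. A gene entered the ratio counts at a mean of 10 CPM and 50 UMIs in both libraries together, and log2 ratios used CPM + 1. Libraries have 1 sample each, so no test was run, and Poisson intervals and floors cover counting error only. Exome and T cell receptor samples were not used here. The members and lists were chosen with earlier results of these data known. Genes named are the 10 largest rises and falls among called members, the 6 smallest p of the contrast, 5 reference subunits, the tissue isoforms, the 5 highest and lowest CD8 ratios and, of other lists, the 3 smallest p, and any other called member or list gene was named after their values were seen. Scripts were tested on simulated data.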

Additional observations from a re-analysis of the deposited data

Results flagged for a closer look

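The MOC1E1 minus MOC1 difference was itself different in tumours and cultures for 18 members, by a limma test of the tumour difference minus the culture difference on the log2(TPM + 1) scale over 12 libraries. Of 82 members tested 17 were lower and 1 higher, where 6.61% of all genes were lower and 10.2% higher. In complex I these were Ndufa4 at −1.72, Ndufb7 at −0.52, Ndufa5 at −0.52, Ndufb10 at −0.49, Ndufb2 at −0.46, Ndufb5 at −0.43, Ndufb11 at −0.35, Ndufa9 at −0.27 and Ndufs3 at 0.22. In complex III it was Uqcrh at −0.47. In complex IV they were Cox8b at −3.60, Cox6a2 at −3.15, Cox6c at −0.38, Cox7a2 at −0.38, Cox8a at −0.35 and Cox4i1 at −0.29. In complex V they were Atp5k at −0.61 and Atp5j2 at −0.37. Only 6 of the 18 (Ndufa4, Ndufb7, Ndufb10, Uqcrh, Cox8b and Cox6a2) kept the call under every alternative and left-out library. Summed muscle markers came to 31.5 to 108 TPM in MOC1E1 tumours and 544.5 to 1958 TPM in MOC1 tumours, against 34 to 45.8 TPM in cultures of both lines, and their part in these values was not tested.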

How the results depend on the processing

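No paired analysis was possible because the numbers in the bulk columns do not match the replicate numbers of the labels. With median-of-ratios scaling, tumours had 0 members higher and 9 lower, where 10.2% of all genes were higher and 12.1% lower. The members' median was then 0.12 in cultures and −0.27 for the tumour minus culture contrast. Over all genes these medians were 0.01 and −0.05, and that contrast had 0 members higher. Tumours had 0 higher with no filter on low values, and the contrast had 0 higher with a filter at 5 TPM or robust shrinkage. Leaving out 1 library at a time gave 0 to 2 higher and 8 to 14 lower in tumours (median −0.16 to −0.11), 18 to 22 higher and 14 to 17 lower in cultures (median 0.0047 to 0.0714), and 0 to 1 higher and 6 to 19 lower for the contrast (median −0.18 to −0.13). Of the member values under all alternatives, 650 of 725 in tumours, 623 of 672 in cultures and 939 of 1057 for the contrast stayed on the same side of the threshold. No value that was called in the main fit or the alternative changed direction. Changes of direction among values called in neither were not counted.

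The CD8 ratios moved with the cells and the denominator. In MOC1 after anti-PD-1 (0.27) the ratio was 0.24 with cells classed by their own transcripts, 0.23 with clusters built without members and mtDNA-encoded genes, 0.25 at no more than 5% mtDNA-encoded UMIs, 0.24 with doublets kept, 0.12 without mtDNA-encoded and ribosomal genes in the denominator, 0.31 as the mean of each cell's CPM and 0.26 with the kept-out clusters put back. In MOC1 after anti-CTLA-4 (0.14) it was 0.0673 with those clusters, 0.12 at 5%, 0.0888 with doublets, −0.0585 with the other denominator and 0.18 as the mean of cells. In MOC1E1 after anti-PD-1 (0.01) it was 0.13 by transcripts, 0.13 with those clusters, 0.0765 with doublets, 0.0485 without dividing cells and −0.0204 with the other denominator. In MOC1E1 after anti-CTLA-4 (−0.05) it was 0.14, 0.11 and 0.0548 in the first 3 of these and −0.0265 with the other denominator. In MOC22 (0.23) it was 0.27 by transcripts, 0.33 without dividing cells, −0.0405 with the other denominator, 0.26 as the mean of cells and 0.17 with the kept-out clusters put back, an alternative chosen after seeing the data. The cause of these changes was not tested. With 1 library per treatment, and an unknown depth behind TPM, counting error is the only error the single-cell intervals hold.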

Other observations

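Tissue isoforms of complex IV were also seen in MOC1E1 immune cells. Cox6a2, the muscle isoform of subunit 6a, had 51, 36 and 52 UMIs in dendritic-like cells after anti-PD-1, anti-CTLA-4 and isotype (21.62, 106.4 and 28.72 CPM) and 44, 4 and 22 UMIs in NK-like cells (15.9, 8.859 and 10.97 CPM), against 0 UMIs in neutrophil-like cells and 0 to 12 UMIs in any T-like class of the 3 models. The dendritic-like UMIs came from 8 of 263, 4 of 59 and 5 of 206 cells (3.04%, 6.78% and 2.43%, at a median of 8788, 6091 and 8315 UMIs per cell), beside 2 of 646, 0 of 1369 and 0 of 186 CD8 T-like cells (at a median of 5737, 4807 and 6836 UMIs). The share was similar in NK-like cells, at 2.03%, 3.08% and 2.4%. B and plasma-like cells had a UMI in 2 of 66 cells after anti-PD-1 (3.03%) and 0 of 76 after isotype. Skeletal muscle markers summed to 83.95, 59.13 and 111 CPM in the same dendritic-like cells, against 1.651 to 15.5 CPM in T-like, NK-like and macrophage and monocyte-like cells of MOC1E1. Neutrophil-like cells, with 0 Cox6a2 UMIs, lay between, at 35.85, 18.24 and 42.43 CPM. Of the 12 markers, Tnni2 gave 186, 20 and 190 UMIs in the dendritic-like cells, where it was among the leading genes of the cluster led by Cd209a. Another 7, Acta1, Actn3, Mb, Myh1, Myh2, Myh4 and Pvalb, gave 0 there, and the part of muscle RNA in the Cox6a2 values was not tested. Cox4i2, the isoform of subunit 4 known from lung and oxygen-sensing cells, had 181, 13 and 28 UMIs in macrophage and monocyte-like cells (19.52, 8.392 and 4.423 CPM), from 6.27%, 1.62% and 1.95% of cells, against at most 0.155% of CD8 T-like cells. These are values of 1 library each, with no test.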
